A study of Mus musculus with 2 samples.

Results

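Megakaryocyte-primed progenitors were sought among sorted bone marrow stem and progenitor cells by the genes of platelets and their precursors. A cell was a member when it held at least 1 unique molecular identifier (UMI, a tag that counts 1 captured RNA molecule) in at least 3 of 7 genes, namely Pf4, Gp1bb, Gp5, Gata1, Itga2b, Sdpr and Apoe. The gate took 760 of 8815 WT cells and 449 of 9216 cKO cells, 1209 of 18031 cells in all. The cells were thus chosen by the measured UMIs of these 7 genes, whose own levels are given as a description only.

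The sorted population was LSK (Lin- Sca-1+ c-Kit+), in which blood stem cells and early progenitors (HSPCs) are found, and the donors were C57BL/6 mice aged 3 months. Each genotype gave 1 droplet library. The labels give the WT genotype as Trmt6fl/fl and the cKO genotype as Trmt6fl/fl with MX1-cre, an interferon-inducible recombinase that also acts outside the blood system. A figure legend of the study instead gives Mx1-Cre to the WT mice too, as Trmt6+/+ animals, with pIpC injected into the mice. Its methods name Trmt6fl/+ Mx1-Cre mice beside the Trmt6fl/fl Mx1-Cre mice. Whether the WT cells carried the recombinase, and which Trmt6 alleles they had, could thus not be settled. The number of mice per library was not given in the sources used here. Genotype, library and depth cannot be told apart, no difference below has a replicate check, and the 95% intervals given reflect error of counting alone.

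Megakaryocytes are the large polyploid marrow cells that shed platelets. Their precursors branch off close to the stem cell, and part of the stem cell pool already carries platelet transcripts such as those of Vwf and Itga2b. The transcription factors GATA1, GATA2, FOG1 (Zfpm1), GFI1B and TAL1 act in both megakaryocyte and erythroid cells, and FLI1, RUNX1 and MEIS1 favour the megakaryocyte side. Cytokine signals that pass through JAK2 and STAT5 drive the lineage. Of the gate genes, Pf4 encodes a chemokine of platelet granules, Gp1bb and Gp5 encode subunits of the von Willebrand factor receptor, Itga2b encodes the alpha chain of the fibrinogen receptor, and Sdpr encodes a protein of the caveolar coat. Apoe encodes apolipoprotein E, a lipid carrier that is not particular to platelets.

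Sequence upstream of 3 of the 7 gate genes, chosen among those whose window holds a match, is shown because megakaryocyte genes are known for motifs of GATA and ETS factors near their start sites. The lines give the 250 bases before the RefSeq start of each gene (GRCm38.p6), 5′ to 3′ on the strand of the gene. Capitals mark GATAA and AGGAAG on either strand, and the motifs do not overlap here.
Pf4 (chr5:90772185-90772434, plus strand): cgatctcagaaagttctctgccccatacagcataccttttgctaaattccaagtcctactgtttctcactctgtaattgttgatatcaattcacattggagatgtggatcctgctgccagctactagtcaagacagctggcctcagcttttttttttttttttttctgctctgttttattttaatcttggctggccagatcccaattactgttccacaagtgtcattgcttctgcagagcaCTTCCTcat
Gp5 (chr16:30310782-30311031, minus strand): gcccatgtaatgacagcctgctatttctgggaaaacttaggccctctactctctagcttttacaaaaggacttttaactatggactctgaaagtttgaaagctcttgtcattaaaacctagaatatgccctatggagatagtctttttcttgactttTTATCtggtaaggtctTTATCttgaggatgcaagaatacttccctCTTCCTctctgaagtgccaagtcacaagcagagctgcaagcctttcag
Itga2b (chr11:102469884-102470133, minus strand): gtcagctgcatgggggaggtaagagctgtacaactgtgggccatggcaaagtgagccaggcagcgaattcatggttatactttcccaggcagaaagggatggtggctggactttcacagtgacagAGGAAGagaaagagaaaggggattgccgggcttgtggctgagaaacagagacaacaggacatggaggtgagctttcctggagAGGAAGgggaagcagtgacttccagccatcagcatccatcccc
Gp5 held GATAA at 2 places and AGGAAG at 1, Pf4 held AGGAAG at 1 place, and Itga2b held AGGAAG at 2. Of the windows not shown, that of Gata1 held AGGAAG at 1 place, those of Gp1bb and Sdpr held neither, and of the 3 of Apoe only 1 held a match (AGGAAG at 1 place). The motif GATAA occurred in 22.6% and AGGAAG in 29.5% of the 32851 upstream windows of the reference, so a match is a description of letters and not a site.

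The gated cells were drawn from libraries of unequal depth. There were 47991455 UMIs over 8869 barcodes in WT and 98323201 over 9260 in cKO. The median gated cell had 4930 UMIs and 1893 genes in WT and 12782 UMIs and 3238 genes in cKO, a ratio of 2.59 in UMIs, against 4252 and 10205 UMIs in the other cells. The libraries shared 24 barcodes, and 1 of these was gated in both. Likely doublets made up 10.5% of the WT and 11.1% of the cKO gated cells, against 7.09% and 7.41% of all WT and cKO cells. The genes of the sort gate were at 70.5 CPM (UMIs of a gene per 1000000 UMIs of the same cells) in WT and 19.2 CPM in cKO gated cells for Kit, and at 17.0 and 56.5 CPM for Ly6a, which encodes Sca-1.

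The protein of Trmt6 joins that of Trmt61a, the catalytic partner, in the enzyme that methylates tRNA adenosine to m1A. Trmt6 (chr2:132804207-132816055, GRCm38) stood at 69.8 CPM in WT gated cells and at 60.6 CPM in cKO gated cells, so the log2 ratio of cKO over WT was -0.20 (-0.43 to 0.02). The interval held 0, and a UMI at the 3′ end does not check a deletion elsewhere in the gene. Trmt61a (chr12:111678105-111683902) had 18.4 and 40.4 CPM, with a ratio of 1.13 (0.76 to 1.52). The ratios in the other cells were -0.34 for Trmt6 and 0.97 for Trmt61a.

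The gate took fewer cKO than WT cells, and the gap was wider at equal depth. With all UMIs, members made up 8.62% (8.04 to 9.23) of the WT library and 4.87% (4.44 to 5.33) of the cKO library. After each cell was thinned at random to 2000 UMIs, 349 of 8610 WT cells passed, a share of 4.05% (3.65 to 4.49), and 51 of 9102 cKO cells passed, a share of 0.560% (0.417 to 0.736). The cKO share was thus 0.565 of the WT share with all UMIs and 0.138 of it at equal depth. Thinned WT cells stayed in the gate in 46.3% of 754 cases and thinned cKO cells in 11.4% of 449 cases. Most cKO members thus no longer met the gate at 2000 UMIs. Cells with a UMI in at least 3 of 10 T or NK genes, called reference cells below, passed the gate in 1 of 18 WT and 1 of 92 cKO cases, with median depths of 4502 and 2162 UMIs. The reference cells were not shown to be T or NK cells. Their level of Dntt, a gene of lymphoid progenitors, was 869 CPM in the WT library, beside 178 CPM in the other cells, and 198 CPM in the cKO library, beside 43.3 CPM. Cd3e had no UMI in them after thinning. Their values are given for comparison and not as a background level.

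**Figure D1:**
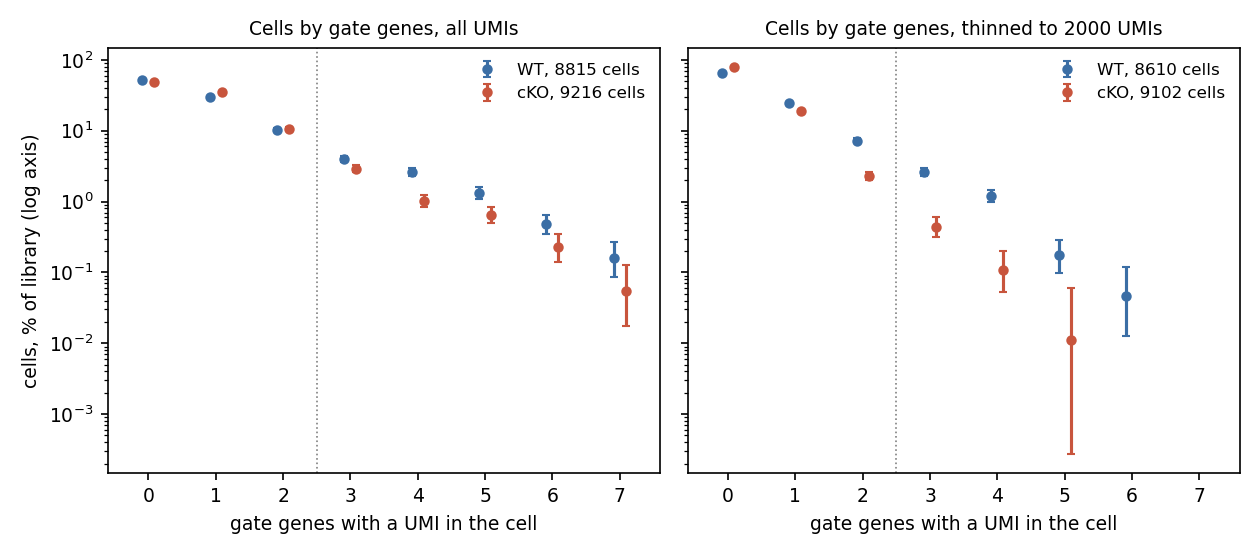
Share of the cells of each library (log axis) by the number of the 7 gate genes with a UMI, with all UMIs (left) and after thinning to 2000 UMIs per cell (right). Points are WT (blue) and cKO (red) cells with exact binomial 95% intervals, a count of 0 is not drawn, and the dotted line is the gate. With all UMIs the libraries lie together at 2 genes and WT lies above cKO from 3 genes on, with intervals that overlap at 7. After thinning, WT lies above cKO from 1 gene on.

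Apoe decided the membership of many cells. It had a UMI in 96.2% of WT and 95.3% of cKO gated cells, but also in 37.3% and 35.3% of the other cells and in 17.6% and 12.1% of the reference cells. Without Apoe the gate took 414 WT and 196 cKO cells, so 346 of the 760 WT members and 253 of the 449 cKO members needed it to pass. Pf4 was present in 69.2% of WT and 70.8% of cKO members. Outside the gate Pf4 had a UMI in 6.26% of WT and 13.6% of cKO cells, but in 3.64% of both once thinned. The gate held 89.4% of all Pf4 UMIs of the WT library and 43.6% of those of the cKO library. The 4 remaining platelet genes (Gp1bb, Gp5, Itga2b and Sdpr) and Gata1 were found in 37.2 to 54.7% of WT members and in 18.9 to 63.7% of cKO members.

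As levels in gated cells, all 7 gate genes were lower in cKO than in WT. Pf4 (chr5:90772435-90773383) had 1208 CPM in WT against 231 CPM in cKO, and Apoe (chr7:19696109-19699188) at 1186 and 451 CPM. Gp1bb (chr16:18620317-18622403) was at 147 and 42.6 CPM, Gp5 (chr16:30307685-30310779) at 94.3 and 28.9 CPM, and Sdpr (chr1:51289126-51302960) at 120 and 26.5 CPM. Itga2b (chr11:102453297-102470122) was at 149.9 and 80.0 CPM, and Gata1 (chrX:7959260-7978071) at 110 and 73.7 CPM. A cell of the deeper cKO library can meet the gate at a lower level of each gene, and the part of this in the 7 differences was not tested.

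The genes outside the gate with the highest folds of gated over other cells are given as a description, since both the minimum in gated cells and the ranking chose them for being high there. Among genes at 50 CPM or more in the gated cells of both libraries, the 12 that led gated over other cells included Tuba8, Car1, Gfi1b, F2r, Fgf3, Zfpm1, Gata2, Tnfaip2, Nt5c3, Sdsl and Nupr1. Tuba8 encodes an alpha tubulin and was at 69.3 CPM in gated against 9.44 CPM in other WT cells, and at 56.4 against 9.36 CPM in cKO, log2 folds of 2.88 and 2.59. F2r, which encodes the thrombin receptor PAR1, had log2 folds of 2.49 in WT and 1.74 in cKO, and Zfpm1, the GATA1 partner FOG1, had 2.22 and 1.72. Gfi1b, a zinc finger repressor needed for megakaryocytes and red cells, had 1.84 and 2.86, and Gata2 had 1.71 and 1.33. The folds were on a log2 scale with 0.5 counts added to each library.

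The lead of Car1, the carbonic anhydrase of early red cells, came from few cells. Its 392 WT UMIs lay in 20 members and its 314 cKO UMIs in 13 members, with up to 100 and 102 UMIs in a single cell. With at least 4 gate genes required its smaller log2 fold went from 2.58 to -3.34. The other named leaders were spread, with Tuba8 in 220 WT and 182 cKO members and F2r in 303 and 210.

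Some platelet genes outside the gate were also higher in gated than in other cells. With a minimum of 10 CPM over gated and other cells together, a setting added after the data were seen, 14 of 41 platelet genes had a log2 fold of 1 or more in WT, where 1.14% of all genes did, and 1 had -1 or less. In cKO 4 of 38 did, where 0.366% of all genes did. The median log2 fold of the platelet genes was 0.49 in WT and 0.28 in cKO, beside 0.02 and 0.01 over all genes. With the minimum set in gated cells alone, which admits genes through the class where they are high, the counts were 26 of 51 in WT, beside 2.52% of all genes, and 8 of 44 in cKO, beside 0.851%, with medians of 1.06 and 0.33. Such a lead was not particular to platelet genes. With the minimum over both together, 5 of 12 erythroid genes were higher and 3 lower in WT, and 0 of 6 were higher in cKO. Their medians were 0.29 and 0.31. Of mast cell and basophil genes, 1 of 6 was higher and 3 lower in WT, and 2 of 4 higher in cKO. Their medians were -0.45 and 0.76. With the minimum in gated cells alone, 10 of 14 erythroid genes were higher in WT (1 lower) and 5 of 11 in cKO. Thinned to 2000 UMIs and with the 42 platelet genes that passed the minimum over gated and other cells together in either library, a WT member had a median of 8 platelet genes with a UMI and another WT cell 6, and a cKO member had 6 and another cKO cell 5. The reference cells had a median of 6 in WT and 4 in cKO. Of the platelet lists, Tubb1, Myl9, P2ry12 and Cd36 had 0 UMIs in members of both libraries and Ppbp had 21 and 19, whereas Gp9 had 363 and 176. These genes were chosen after their values were seen. The members are called gated cells below.

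**Figure D2:**
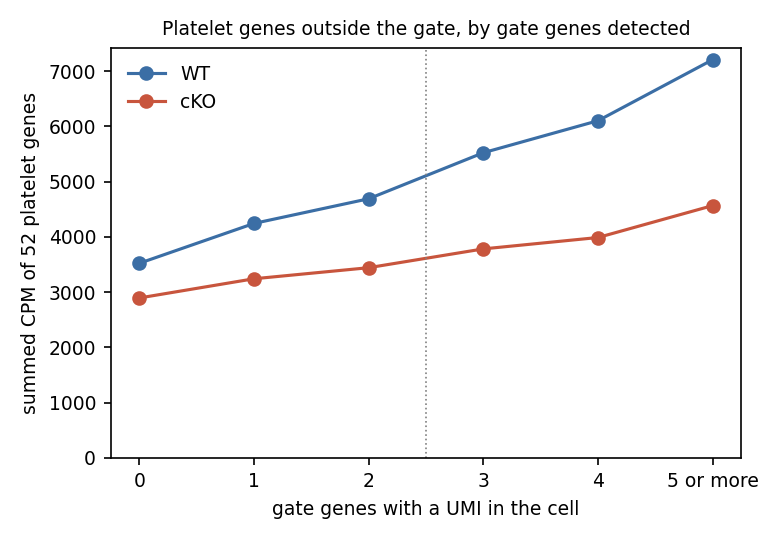
Summed CPM of the 52 compared platelet genes that the gate did not use, by the number of gate genes with a UMI, in WT (blue) and cKO (red) cells. Each point pools the cells of 1 library, without error bars because cells are not replicates, and the dotted line is the gate. The sum goes up from 3521 to 7206 CPM in WT and from 2893 to 4565 CPM in cKO. It rises from each point to the next on both sides of the gate, and WT lies above cKO throughout.

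The summed level of these platelet genes rose with each added gate gene, below the threshold of the gate as well as across it. Cells with 1 gate gene had 4242 CPM in WT and 3241 CPM in cKO, and cells with 4 had 6101 and 3987 CPM. Cells just outside it, with 2 gate genes, numbered 902 in WT and 986 in cKO and had summed platelet levels of 4689 and 3441 CPM. Cells just inside, with 3 gate genes, numbered 352 and 269 and had 5522 and 3782 CPM. The 174 WT and 86 cKO cells with 5 or more gate genes had 7206 and 4565 CPM, and the 4548 WT and 4548 cKO cells with no gate gene had 3521 and 2893 CPM. Over the 42 genes that passed the minimum over gated and other cells together, the sums were 3577 and 2871 CPM with no gate gene and 6809 and 4404 CPM with 5 or more. Among the cells with 5 or more gate genes, 20 of the 52 platelet genes were lower in cKO by a log2 ratio of 1 or more and 1 was higher, with a median of -0.76. Of all 7393 genes compared, 9.37% were lower and 4.21% higher among the same cells. That comparison holds the number of gate genes equal, but not the depth, which was 5611 UMIs at the median in WT and 14152 in cKO.

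Gated cKO cells were compared with gated WT cells over the 7393 genes at 10 CPM or more in either, the gate genes left out. A total of 172 genes had a log2 ratio of 1 or more, which is 2.33% of them, and 470 had -1 or less, which is 6.36%. The median over all genes was -0.08. TMM and median-of-ratios scaling moved this median up by 0.13 and 0.16, and the share of higher genes among those past either limit went from 26.8% to 41.2% and 44.3%. Small negative ratios, such as those of Gfi1b, Zfpm1 and Tln1 below, change sign under these scalings.

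**Figure D3:**
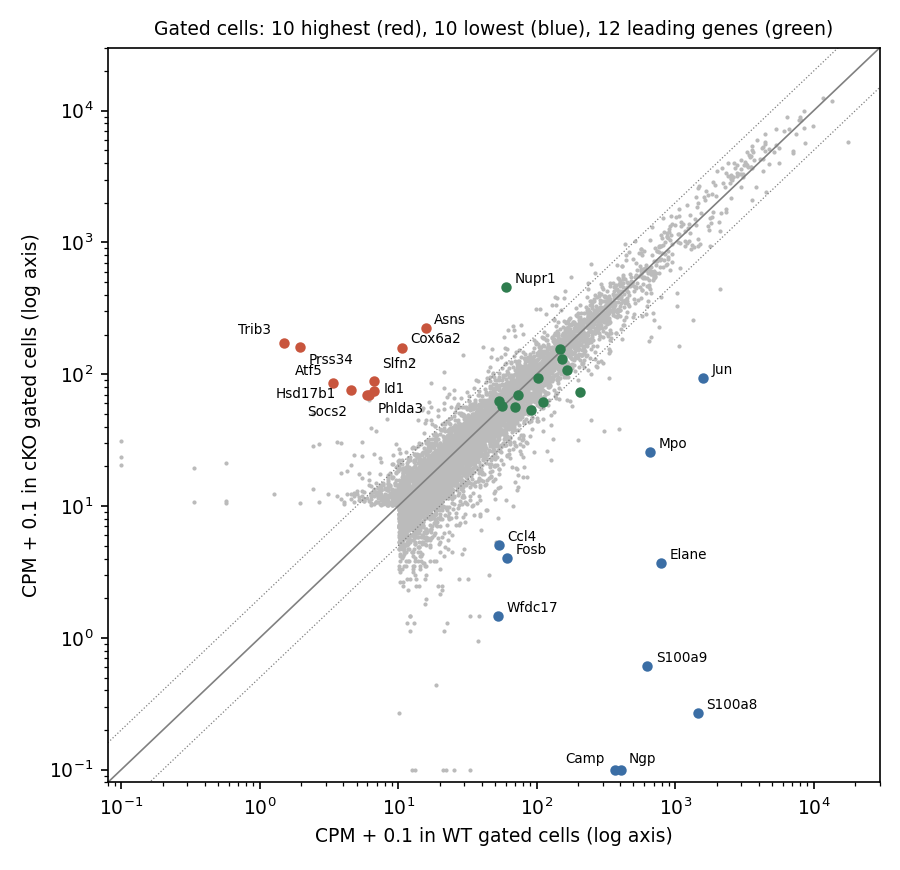
Level of each of the 7393 compared genes in gated WT cells (x axis) and gated cKO cells (y axis), as CPM + 0.1 on log axes, with the line of equal levels and dotted lines at a 2-fold difference. With a limit of 50 CPM in WT or cKO, the 10 highest ratios (red) and the 10 lowest (blue) are marked, as are the 12 leading genes of the gated cells (green). Genes of neutrophil granules lie far below the line, Trib3 and Asns lie far above it, and most leading genes lie near it apart from Nupr1, which lies above it.

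By their median, the platelet genes outside the gate were lower in cKO gated cells. Of 52 compared genes in the lists of platelet receptors, granule proteins and signalling proteins, 19 had a log2 ratio of -1 or less and 1 had 1 or more. Over all genes these shares were 6.36% and 2.33%. A ratio above 0 was found for 12 of the 52. The median of the 52 was -0.70, and -0.12 for the same genes in the other cells, beside -0.08 and -0.04 over all genes. The median stayed between -0.83 and -0.43 under every other setting, and was -0.43 when the gate was set on thinned cells and all their UMIs were counted. At 2000 UMIs, 46.3% of WT but 11.4% of cKO members still passed the gate. A cell of the deeper cKO library can thus meet the gate at a lower platelet level. The part of this in the ratios here and by role below was not tested. Genes of these lists named here beyond the rule for named genes were chosen after their values were seen.

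Among receptors, 5 of 14 were lower by the same limit and none was higher, with a median of -0.85 against -0.01 in the other cells. Gp9, a subunit of the von Willebrand factor receptor complex with Gp1bb and Gp5, had 84.8 CPM in WT against 29.9 CPM in cKO gated cells, a log2 ratio of -1.50 (-1.77 to -1.24). In the other cells Gp9 was at 10.4 and 10.5 CPM. Treml1, a receptor of platelet alpha granules, was at 29.9 and 4.58 CPM, a log2 ratio of -2.68 (-3.36 to -2.10), and Itgb3, the partner chain of Itga2b, at 10.7 and 2.38 CPM, -2.14 (-3.15 to -1.29). The ratio of Itgb3, on 46 and 14 UMIs, was 0.11 with gate and counts thinned. Of the thrombin receptors, F2r was at 111 and 61.0 CPM (-0.87) and F2rl2 at 27.3 and 7.13 CPM (-1.93), whereas F2rl3 was at 27.3 and 41.6 CPM (0.60). The tetraspanin Cd9 was at 262 and 147 CPM, -0.83 (-0.96 to -0.70), while in the other cells its ratio was 0.45. The junction protein Esam was at 41.8 and 42.1 CPM in gated cells and at 16.3 and 52.6 CPM in the other cells.

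Among granule and secreted proteins, 8 of 13 were lower and none higher, with a median of -1.08 against -0.03 in the other cells. Vwf, which tethers platelets to vessel walls, had 98 UMIs in WT and 32 in cKO gated cells, 22.9 and 5.43 CPM, a log2 ratio of -2.06 (-2.70 to -1.49). In the other cells Vwf had 36 and 180 UMIs, and its ratio was 1.22 (0.72 to 1.80). Mmrn1, the granule carrier of factor V, was at 34.6 and 10.0 CPM in gated cells, -1.78 (-2.25 to -1.34), and had a ratio of 0.58 in the other cells. Nrgn, a calmodulin-binding protein, was at 769 and 228 CPM, -1.75 (-1.85 to -1.66), with UMIs in 708 WT and 373 cKO members. Serpine2, a protease inhibitor, had a ratio of -1.69, and Rab27b, a small GTPase of granule transport, of -1.32. Srgn, the proteoglycan core of many granules, had -0.56 in gated and -0.54 in other cells, and Tgfb1 was the 1 compared member above 0, at 0.42.

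Among signalling and cytoskeletal proteins, 6 of 25 were lower and 1 was higher, with medians of -0.34 in gated and -0.29 in other cells. The 6 included Rgs1 at -2.45 and Rgs10 at -2.16, which limit signalling by G proteins, and their ratios in the other cells were -2.44 and -2.64. Gng11, a G protein gamma subunit, was at 173 and 62.1 CPM (-1.48), with a ratio of -0.47 in the other cells. Pla2g4a, which frees arachidonic acid, was at 59.3 and 120 CPM (1.01), and Ptgs1, the cyclooxygenase that makes the precursor of thromboxane, at 33.4 and 44.5 CPM (0.41). In the other cells these had ratios of 1.67 and 1.98. Talin (Tln1), which activates the fibrinogen receptor, was at 274 and 253 CPM, a ratio of -0.11.

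**Figure D4:**
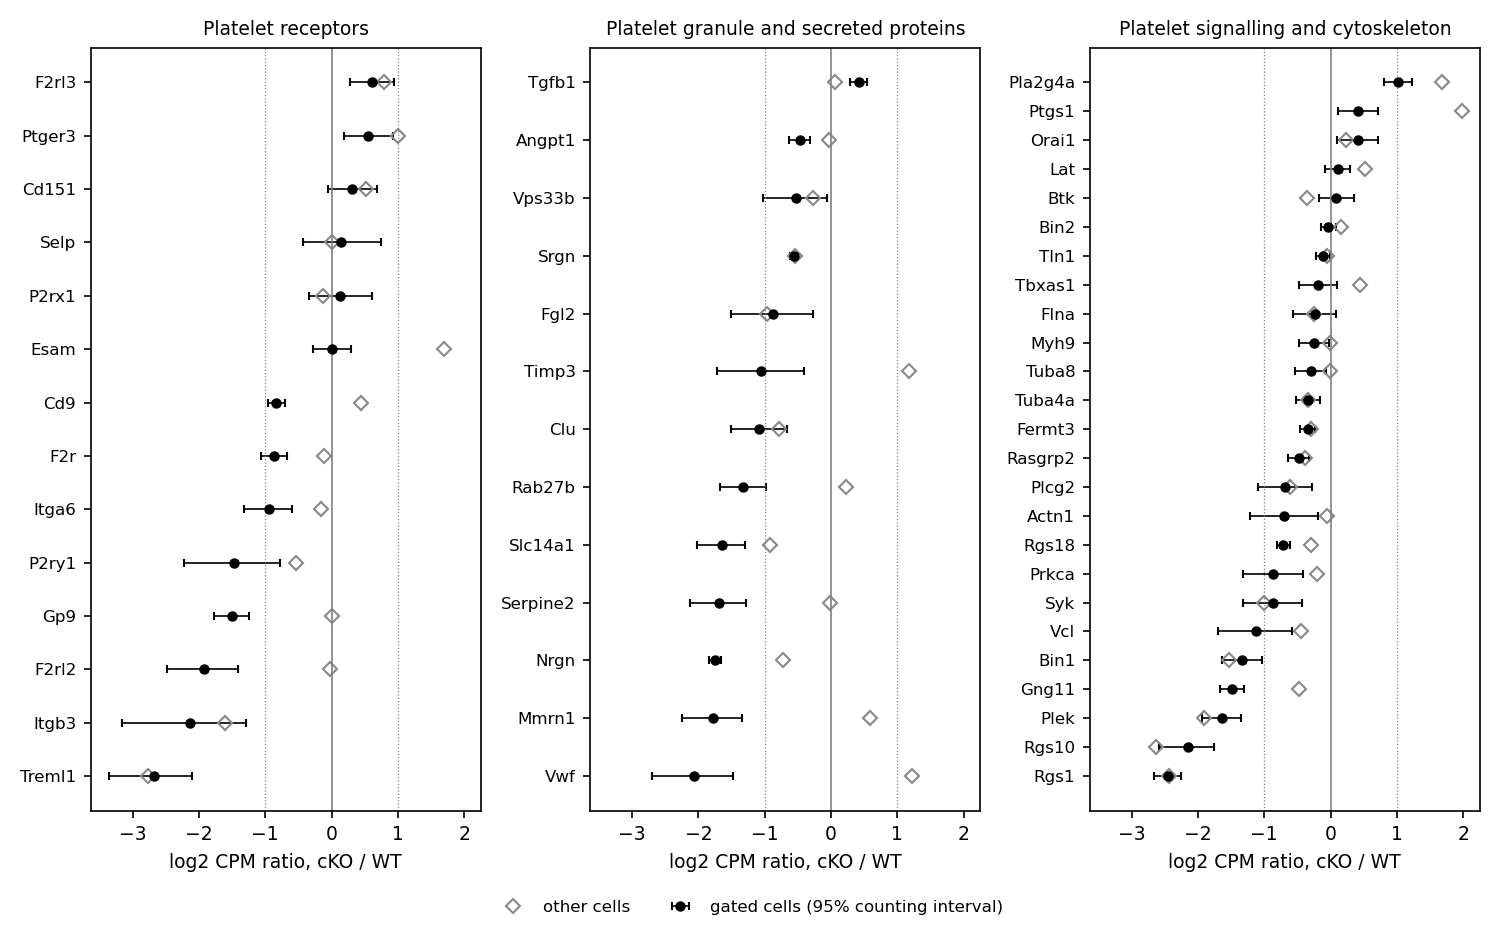
log2 ratio of CPM in cKO over WT for each platelet gene compared, by role, in gated cells (black points with exact 95% counting intervals) and in the other cells (open diamonds). Solid lines mark 0 and dotted lines -1 and 1. Vwf, Mmrn1 and Timp3 lie to the left in gated cells and to the right in the other cells, whereas Treml1, Rgs1 and Srgn have nearly the same ratio in both.

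Of 21 compared transcription factors of the lineage, 2 were lower and none higher, beside 6.36% lower and 2.33% higher of all genes compared. These counts are near those shares. The medians of the factors were -0.36 in gated and -0.18 in other cells. Mef2c, which acts in megakaryocytes and B cells, was at 330 and 146 CPM, a ratio of -1.18 (-1.30 to -1.06). Fli1 and Runx1 each had -0.99. Gfi1b was at 73.3 and 70.0 CPM (-0.07), Zfpm1 at 102 and 93.9 CPM (-0.12), Gata2 at 153 and 130 CPM (-0.24), and Lmo2, an adaptor of GATA complexes, at 523 and 457 CPM (-0.19).

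In the list of JAK and STAT signalling, 4 of 19 genes were lower and 3 higher, beside 6.36% and 2.33% of all genes. The medians were -0.29 in gated and -0.19 in other cells. Jak2 had -1.40, Stat5a had -1.01 and Kit, the stem cell factor receptor, had -1.87. A pair of the feedback inhibitors of this pathway were higher. Socs2 was at 6.07 and 69.1 CPM, 3.48 (2.94 to 4.14), and Cish at 5.37 and 30.7 CPM, 2.49 (1.89 to 3.21), whereas Socs3 had -1.37.

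The highest ratios of all compared genes at 50 CPM or more included Trib3 at 6.84, Prss34 at 6.34, Atf5 at 4.66, Hsd17b1 at 4.07, Cox6a2 at 3.91, Asns at 3.83, Slfn2 at 3.75, Phlda3 at 3.56, Socs2 at 3.48 and Id1 at 3.48. Trib3, a pseudokinase induced by ATF4, had 6 UMIs in 6 WT members and 1024 UMIs in 300 of the 449 cKO members, 1.40 and 174 CPM. Prss34, a protease of basophils, had 944 UMIs in cKO, all in 1 cell, and 8 UMIs in 8 WT cells. Without the top cell of each library its ratio was -4.37. Of these genes Prss34 alone rested on 1 cell, and the others lay in 150 or more cKO members.

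ATF4 and amino acid supply formed the list with the highest median. ATF4 is a transcription factor that rises when amino acids run short and drives their synthesis and transport. Of 41 compared genes, 37 were higher in cKO gated cells and none lower, with a median of 1.79 against 1.63 in the other cells. Asns, the asparagine synthetase, was at 15.6 and 224 CPM, 3.83 (3.49 to 4.22), and Phgdh, the first enzyme of serine synthesis, at 161 and 430 CPM, 1.42 (1.30 to 1.54). Slc7a3, a transporter of arginine and lysine, had 0 UMIs in WT and 184 in cKO, at least 44.6-fold higher by a floor of 3 counts over the group. Cth, which makes cysteine, had 0 and 139 UMIs, at least 33.7-fold higher. Thinned to 2000 UMIs, a UMI of Asns was in 1.99% of WT and 29.8% of cKO members, beside 1.54% and 28.0% of the other cells and 0 of 13 and 21.6% of 51 reference cells. Reference cells of the cKO library held Asns too, so a UMI of it does not mark the gated cells.

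The p53 response was higher in 7 of 12 genes and lower in 1, with medians of 1.15 in gated and 1.02 in other cells. Cdkn1a, the cell cycle inhibitor p21, was at 58.8 and 159 CPM, 1.43 (1.23 to 1.64), against a ratio of 0.26 in the other cells. Phlda3, an inhibitor of AKT, was at 5.84 and 70.0 CPM and Bax, which opens mitochondria in apoptosis, at 138 and 336 CPM. MYC targets and ribosome assembly had 0 of 34 genes past either limit, with a median of 0.57 and 32 genes above 0. Ncl, a nucleolar protein of ribosome assembly, was at 932 and 1588 CPM and Npm1 at 1491 and 2699 CPM. The TSC and mTORC1 list had 2 of 15 genes higher, Ddit4 and Eif4ebp1, and a median of 0.17.

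Immediate early and NF-kB genes, which respond within minutes to stimuli and to tissue handling, were lower in 21 of 26 and higher in none, with medians of -1.97 in gated and -1.88 in other cells. Jun was at 1587 and 93.6 CPM, -4.08 (-4.21 to -3.96), Fosb at 60.9 and 3.91 CPM, -3.94, and Jund at 1347 and 257 CPM, -2.39. The chemokine Ccl4 was at 53.5 and 4.92 CPM, -3.42. Whether sample handling differed between the libraries was not tested.

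**Figure D5:**
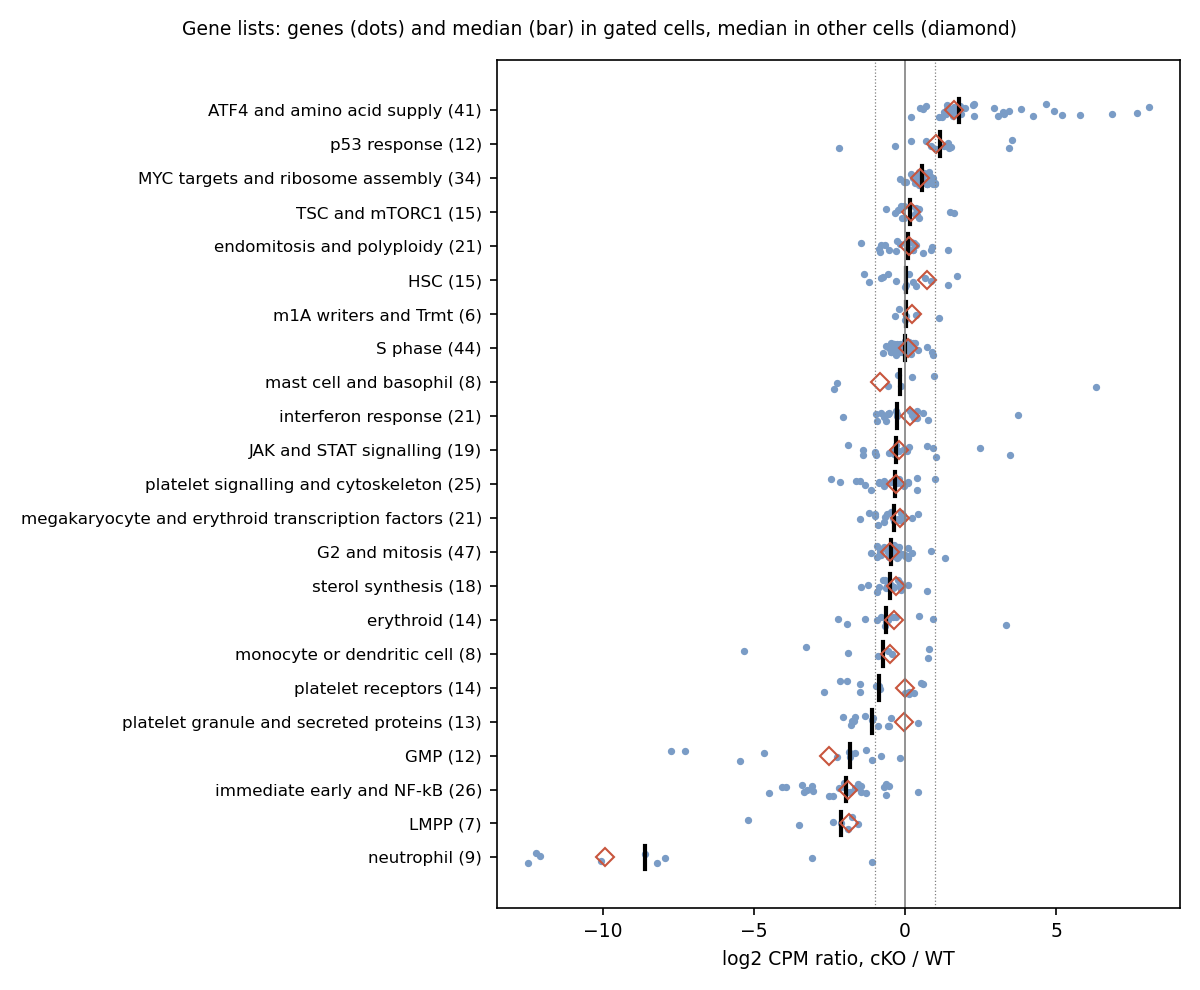
log2 ratio of CPM in cKO over WT in gated cells for the genes of each list with at least 5 genes compared (number in brackets). Dots are genes, black bars are medians in gated cells and red diamonds are medians in the other cells, and genes with no UMI in a library are drawn at their value with 0.5 counts added. ATF4 and amino acid supply is highest and the neutrophil list lowest, and platelet receptors and granule proteins have medians of -0.85 and -1.08 in gated cells but -0.01 and -0.03 in the other cells.

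With a limit of 50 CPM in gated WT or cKO cells, the 10 lowest ratios were those of S100a8, Ngp, Camp, S100a9, Elane, Wfdc17, Mpo, Jun, Fosb and Ccl4. All 9 compared genes of the neutrophil list were lower in cKO, with a median of -8.61, or -6.02 with the 5 genes that had no cKO UMI set at their bounds. S100a8, a calcium-binding protein of neutrophils, had 6275 UMIs in 255 WT members, 1622 of them in a single cell, and 1 UMI in cKO, a log2 ratio of -12.49 (-18.38 to -10.60). Ngp and Camp, proteins of neutrophil granules, had 1733 and 1576 UMIs in WT and 0 in cKO, at least 794-fold and 722-fold lower by the same floor. The list summed to 3315 CPM in WT and 160 CPM in cKO gated cells, to 6646 and 173 CPM in the other cells, and to 381 and 108 CPM in the reference cells. The sum in WT members fell with more gate genes. In WT and cKO it was 5653 and 160 CPM with 3 gate genes, 2256 and 149 CPM with 4, and 465 and 164 CPM with 5 or more. Of GMP genes, 10 of 12 were lower, with a median of -1.83. Mpo, the myeloperoxidase, was at 658 and 25.6 CPM and Elane, neutrophil elastase, at 790 and 3.57 CPM.

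Leaving out the members that held S100a8, S100a9, Ngp, Camp or Elane left 163 of 760 WT and 434 of 449 cKO cells. The platelet median was -0.66 among them. This filter took most WT members but few cKO members, so the part of these granule genes in the platelet comparison was not tested by it. The platelet median was -0.78 without members with a UMI of Fcer1a, Prss34, Mcpt8 or Ms4a2, and -0.81 without likely doublets.

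Markers of other lineages varied among the members. Thinned to 2000 UMIs, Klf1, the erythroid KLF factor, had a UMI in 5.44% of WT (3.93 to 7.30) and 3.12% of cKO (1.71 to 5.18) members, against 0.560% and 0.277% of the other cells and 0 of 13 and 0 of 51 reference cells. Fcer1a, a chain of the IgE receptor of mast cells and basophils, had a UMI in 5.04% and 6.24% of members, against 0.509% and 0.300% of the other cells. Without thinning, 36 WT and 25 cKO members held both Klf1 and Gp1bb, 33 and 28 held both Fcer1a and Gp1bb, and 17 and 13 held both Klf1 and Fcer1a. Alone, Klf1 was in 91 WT and 58 cKO members, Fcer1a in 75 and 80, and Gp1bb in 328 and 136. Some members thus held a UMI of genes of more than 1 of these lineages. Likely doublets were kept among the members, and their part in these counts was not tested. Mpo had a UMI in 31.7% of thinned WT members and 61.4% of the other WT cells, and in 2.45% of cKO members and 4.30% of the other cKO cells. Mki67, a marker of cycling cells, had a UMI in 21.5% and 17.1% of members and in 13.1% and 10.7% of the other cells.

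Genes of stem cells varied in members relative to other cells, and Flt3 was less frequent in members. Procr, a surface marker of stem cells, had a UMI in 1.46% of WT and 2.45% of cKO members after thinning and in 3.25% and 7.44% of the other cells. Mecom, a transcription factor of stem cells, had a UMI in 6.37% and 6.46% of members and in 6.05% and 10.9% of the other cells. Flt3, the receptor of lymphoid-primed progenitors, had a UMI in 3.98% and 0.668% of members and in 18.3% and 6.56% of the other cells. The HSC list had a median ratio of 0.05 in gated cells and 0.73 in other cells, with 2 of 15 genes higher (Ly6a at 1.72 and Procr at 1.44) and 2 lower. All 7 compared LMPP genes were lower, with a median of -2.12. Cd3e, Pax5 and Epx had 0 UMIs in members of both libraries. For Cd3e and Epx after thinning, 0 of 754 WT and 0 of 449 cKO members allow up to 0.398% and 0.668% of members with a UMI by a floor of 3 counts, which does not limit the share of cells that express the gene, since Cd3e was also in 0 of the 13 WT and 51 cKO reference cells. The macrophage list summed to 56.3 and 24.3 CPM and the eosinophil list to 1.63 and 0.679 CPM.

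The counts of the remaining lists are given beside shares of 6.36% lower and 2.33% higher over all genes compared. The erythroid list had 3 of 14 genes lower and 1 higher, with a median of -0.61. Its low members included the water channel Aqp1 at 42.7 and 9.17 CPM (-2.21), and its high member was Hbb-bt, a beta globin, at 12.6 and 128 CPM (3.33). S phase genes had 0 of 44 past either limit and a median of 0.01. G2 and mitosis genes had a median of -0.45, with Nusap1 lower at -1.11 and Ecm1, which encodes a protein of the extracellular matrix, higher at 1.31. For endomitosis and polyploidy, by which megakaryocytes multiply their genome, 1 of 21 genes was higher and 1 lower (Cdkn1a and Cdkn2c), with a median of 0.11. Sterol synthesis had 2 of 18 lower and a median of -0.49, and the interferon response 1 of 21 higher (Slfn2), 1 lower (Ifi27l2a) and a median of -0.28. The median was -0.18 over 8 mast cell and basophil genes, -0.73 over 8 monocyte or dendritic cell genes and 0.02 over 6 genes of m1A enzymes. Of the T or NK, B lineage and macrophage lists, 2, 1 and 1 genes were compared, of which Nkg7 (-1.09) and Trf (-1.81) were lower past the limit and Lck and Cd79b were not.

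Where the gated cells stood apart from the rest was asked by subtracting the log2 ratio of the other cells from that of the gated cells. With limits of 50 CPM in gated and 10 CPM in other cells, each reached in WT or cKO, the largest positive differences were those of Prss34 (7.44), Ms4a3 (1.97), Car1 (1.57), S100a9 (1.53) and Usp40 (1.46). The largest negative ones under the same limits were those of S100a8 (-2.39), Socs2 (-2.34), Elane (-2.29), Mycn (-1.69) and Sla (-1.66). Compared genes outside these limits also had large differences, with Vwf at -3.28, Mmrn1 at -2.36 and Timp3 at -2.23 among platelet genes and Mcpt8, a protease of basophils, at 2.27, chosen after their values were seen. The intervals, by a normal approximation from 4 counts, held 0 for S100a9 (-0.04 to 3.11) and nearly reached it for S100a8 (-4.70 to -0.07). Mycn, a MYC family factor, was at 67.5 and 96.4 CPM in gated WT and cKO cells and at 15.6 and 71.5 CPM in the other cells, a difference of -1.69 (-1.92 to -1.45). Socs2 was at 6.07 and 69.1 CPM in gated and at 1.63 and 92.8 CPM in other cells. Sla, an adaptor that dampens receptor signalling, had a log2 ratio of -2.44 in gated and -0.78 in other cells, and Usp40, a deubiquitinase, 1.88 and 0.42. Ms4a3, a marker of granulocyte-monocyte progenitors, was at 93.2 and 38.2 CPM in gated and at 166 and 17.4 CPM in other cells. Its log2 ratio in gated cells was -1.28, but 0.67 with gate and counts thinned and 0.38 with the gate set on thinned cells.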

How the data were processed

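Gene by cell matrices of UMI counts were deposited by the authors, made with Cell Ranger 6.0.0 on GRCm38, per the labels and the methods of the study. The labels name version 2 of the 10x 3′ kit and the methods version 3. Barcodes with over 200 genes and under 10% mitochondrial UMIs were kept. Members were cells with a UMI in at least 3 of 7 gate genes, and the members and the 27 gene lists were chosen with earlier results of these data known. UMIs were summed per library and class and scaled to CPM, and log2 ratios of cKO over WT carry 0.5 prior counts. Exact intervals (Poisson, conditional binomial, Clopper-Pearson) were computed with scipy 1.17.1. With 1 library per genotype no test was made, and a log2 ratio of 1 or -1 stood in for a call. Doublets were kept. An alternative removed them by the share of simulated doublets among 50 neighbours. Lists had 5 symbols that were not found in the matrices. Coordinates are from GENCODE M21, upstream sequences from RefSeq, and edgeR 4.0.16 gave TMM factors. Summed counts and intervals were tested on simulated independent Poisson counts. These lack the clumping of UMIs in single cells that Prss34, S100a8 and Car1 had, so the intervals of such genes were not tested.

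Named genes, at 50 CPM or more in the gated cells of a library, were the 10 highest and 10 lowest ratios, 12 genes leading gated over other cells, and 5 differences in each direction between gated and other cells (10 CPM or more there). The gate genes, Trmt6, Trmt61a and, per list, the 2 of highest level and the 2 of most extreme ratio were added. Some genes that the rule names are not reported here.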

Additional observations from a re-analysis of the deposited data

Results flagged for a closer look

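Of all compared genes, Prss34, Vwf and Timp3 differed in direction between gated and other cells by a log2 ratio of at least 1 on each side. The ratio of Prss34 was 6.34 in gated cells and -1.10 in the other cells, that of Vwf was -2.06 and 1.22, and that of Timp3 was -1.05 and 1.18. With 1 library per genotype the difference was not tested. All 944 cKO UMIs of Prss34 in gated cells lay in 1 cell. The UMIs of Vwf were spread over 69 WT and 28 cKO members, with at most 6 and 2 in a cell. No group had enough samples to look for a sample apart from the others.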

How the results depend on the processing

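The gate shares moved with nearly every setting. In WT and cKO they were 1.58% and 0.163% with cells thinned to 1000 UMIs, 18.9% and 15.6% with at least 2 gate genes, and 4.63% and 1.95% with at least 4. Leaving out 1 gate gene gave 6.34% and 3.01% (Pf4), 7.74% and 4.44% (Gp1bb), 7.50% and 4.35% (Gp5), 7.14% and 3.58% (Gata1), 7.08% and 3.22% (Itga2b), 4.70% and 2.13% (Apoe), and 7.88% in WT (Sdpr). Thinned to 2000 UMIs they were 4.05% and 0.560%. The limits of the study and removal of likely doublets left them within their intervals, and the cKO share was below the WT share in every setting.

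The number of higher genes was 278 with median-of-ratios scaling, 83 at a minimum of 50 CPM, 1055 with gate and counts thinned, 327 without the cells that had 2 mast cell or macrophage genes, 358 with the gate set on thinned cells and 347 with at least 5 gate genes. The number of lower genes was 715 at a minimum of 5 CPM, 122 at 50 CPM, 1308 with gate and counts thinned, 715 without cells with granule genes and 751 with at least 5 gate genes. The thinned gate held 349 WT and 51 cKO cells. These same cells gave 358 higher genes with all their UMIs counted and 1055 with thinned counts. The parts of fewer cells and of fewer UMIs in these counts were not tested. The filter on mast cell or macrophage genes left 229 WT and 77 cKO cells, since its lists include Gata2 and Srgn. The platelet median stayed within its interval throughout.

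Named genes reversed as follows. Thinned gate and counts gave 1.19 for Fcnb, 0.90 for Hdc, 0.11 for Itgb3 and 0.67 for Ms4a3. The gate set on thinned cells gave 0.38 for Ms4a3 and -1.56 for Prss34. Prss34 was -3.21 with at least 4 gate genes, -3.33 without Apoe, -2.99 with at least 5 and -0.46 without cells with basophil genes, and Hdc was 0.29 without cells with mast cell or macrophage genes. Of the 12 leading genes, 7 remained with thinned gate and counts, 8 with at least 4 gate genes and 8 without Apoe. The smaller fold of Car1 was -0.36 with thinned gate and counts, -3.34 with at least 4 gate genes and -3.36 without Apoe. Of the 1650 other values of named genes, 11 were counted as reversed and 458 lay outside the interval of the reported value. That count holds genes past the limit only. It leaves out the changes of sign of small ratios, such as those of Gfi1b, Zfpm1 and Tln1 under the other scalings. Of 408 list medians none was counted as reversed. The gate set on thinned cells, the limit of 5 gate genes and the filters on basophil and granule genes were added after the data were seen, as was the minimum over gated and other cells together, which took the platelet genes higher in gated WT cells from 26 to 14 and in cKO from 8 to 4. The cause was not tested. No paired analysis was possible because each genotype had 1 library.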
